A study of Homo sapiens with 4 samples.

Results

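The MYC and MAX network is the set of basic helix-loop-helix leucine zipper transcription factors that pair with MAX or with its relative MLX, and its messenger RNAs were followed here after knockdown of YEATS2. The members were the 10 genes MYC, MYCL, MAX, MXD1, MXD3, MXD4, MXI1, MNT, MLX and MLXIP. They were found by their symbol in the count files, where each had 1 row among the 60623 genes. BICR10 cells, an established line of human head and neck carcinoma, gave all 4 libraries. They were transduced with lentivirus carrying a control hairpin (shControl, 2 libraries) or a hairpin against YEATS2 (shYEATS2, 2 libraries) and were selected with puromycin. YEATS2 encodes a reader of acylated histone tails, and it was silenced in these cells to study its part in head and neck cancer. A pair of YEATS2 hairpins was used in the study, and which of them each shYEATS2 library carried is not given in the sources used here. Whether the libraries of a condition came from separate transductions is not stated either, so the p-values measure the spread between these libraries.

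MAX forms dimers with MYC that bind the E-box CACGTG and activate transcription, and it forms dimers with the MXD proteins, MXI1 and MNT that bind the same site and recruit SIN3 and histone deacetylases. The balance of these partners is known for setting growth and differentiation in epithelia, where MYC is high in dividing cells and MXD1 rises as they differentiate. MLX pairs with MLXIP (MondoA) and MLXIPL (ChREBP), which respond to glucose, and also with MNT, MXD1 and MXD4.

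The total of counts on genes lay between 39824898 and 47297970 in shControl and between 11334133 and 24072396 in shYEATS2, and both shYEATS2 libraries were thus the shallower ones. After thinning every library to 11334133 counts, MXD3 was the 1 member that lost its call and 0 gained one. YEATS2 stood at 66.1 and 66.7 CPM (counts as a rate of the library total after TMM scaling, 1 CPM being 1 count in 1e+06) in shControl and at 29.2 and 29.1 CPM in shYEATS2, in the direction of the labels. Among the defining markers of a squamous epithelial cell, TP63 had 3 or fewer counts in every library and KRT14 averaged 1.21 CPM in shControl, while SFN (130 CPM), PERP (112 CPM), KRT6A (56.6 CPM), LAMB3 (53.1 CPM) and KRT5 (15.7 CPM) were higher there. Low in shControl were also DSP (5.73 CPM), KRT16 (5.16 CPM), PKP1 (2.99 CPM), DSG3 (1.87 CPM), EPCAM (1.01 CPM) and KRT17 (0.331 CPM). KRT6A fell to 1.79 CPM on average and CDH1 rose from 0.335 to 2.48 CPM. Of the 14 squamous markers 12 were tested, 2 rose and 7 fell, and their sum was between 379 and 394 CPM in shControl and between 318 and 333 CPM in shYEATS2. Most of this sum was SFN, PERP and LAMB3, with log2 fold changes of 0.02, 0.19 and 0.03. The median log2 fold change of the 12 tested squamous markers was −1.50. Markers of fibroblasts were abundant, with COL1A1 averaging 2796 CPM in the control pair and 891 CPM after knockdown. Of the 10 fibroblast markers 9 were tested, and 8 of these fell and 0 rose. Their summed level was between 7461 and 7547 CPM in shControl and between 2289 and 2424 CPM in shYEATS2, with THY1 at 13 counts or fewer in every library. The 6 leukocyte markers summed to at most 1.85 CPM, with CD3E and CD68 at 0 counts throughout (81.6% of the CD68 exon bases are shared with another gene of the same strand, where reads may not have been counted), and the 7 endothelial markers to between 36.0 and 36.9 CPM in shControl and between 19.2 and 20.2 CPM in shYEATS2, with CLDN5 at 0 counts. This shift of markers moved with every difference given here, and its part in them was not tested. In such bulk samples, fewer cells of a type and less RNA per cell cannot be told apart.

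MYC, MXD1, MAX, MNT and MXI1 rose after YEATS2 knockdown, and MXD4 fell. MYC and MXD1, an activator and an antagonist that compete for MAX, rose by 2.09-fold and 2.11-fold. MXD3 fell by a small amount that stood at the threshold, and neither MLX nor MLXIP was called. MYCL, an activator of the same family as MYC and MYCN, had too few counts for a test. Of the 9 members tested with edgeR's quasi-likelihood test at a Benjamini-Hochberg adjusted p under 0.05, 5 were higher and 2 were lower. Of the 17058 tested genes 46.2% passed in either direction, 22.6% as higher and 23.6% as lower. For all 9 the libraries of the conditions did not overlap, 6 with both shYEATS2 libraries above and 3 with both below, and this was so for 71.6% of all tested genes (35.3% above and 36.3% below). The median log2 fold change of the 9 members was 0.30, against −0.01 over all tested genes. Members that moved in both directions lie behind this median.

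**Figure D1:**
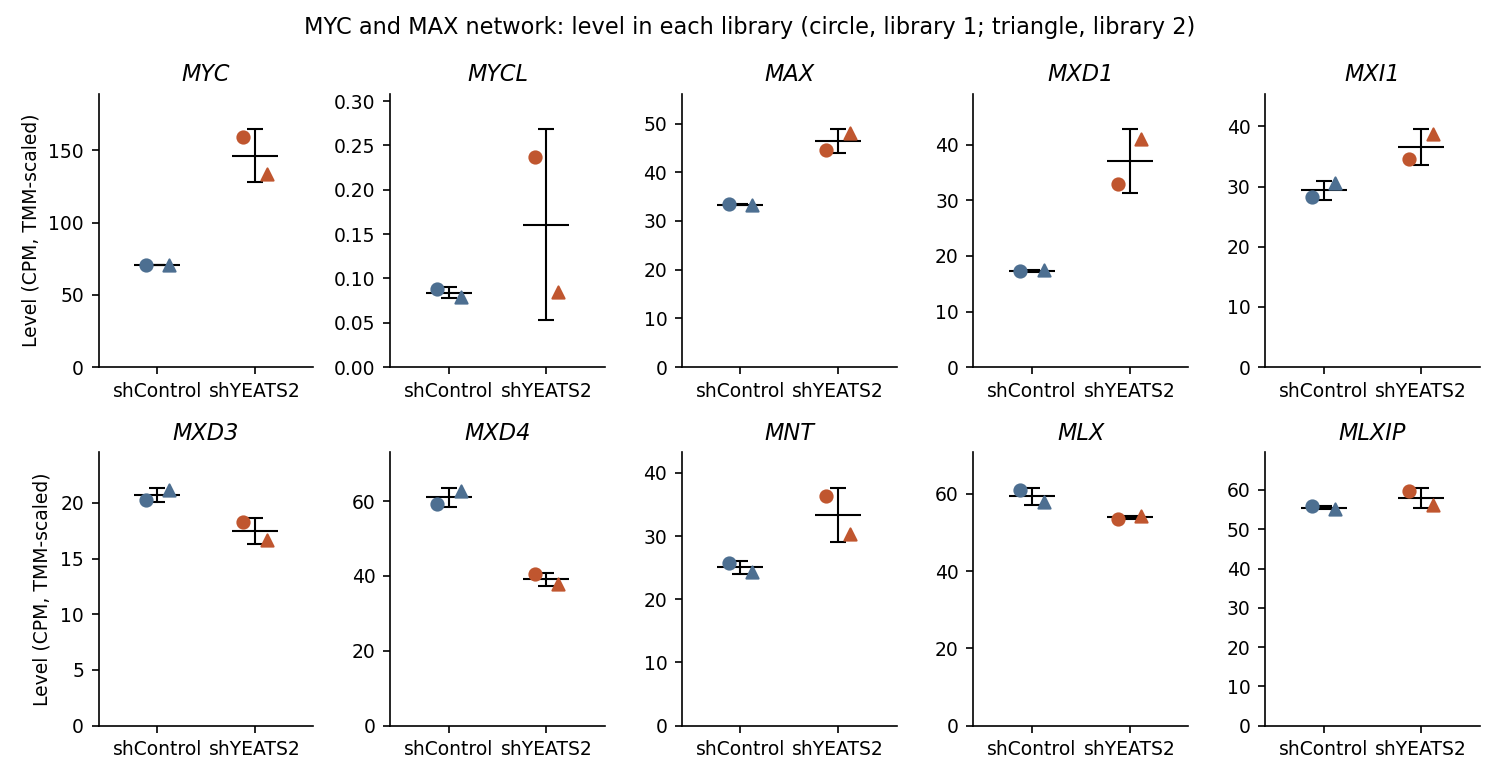
Level of each of the 10 members in CPM after TMM scaling, one panel per gene with its own axis from 0. Circles are library 1 and triangles library 2 of each condition, and the bar with whiskers is the mean ± SD (n = 2). MYC lies at 70.4 CPM in both shControl libraries and at 159 and 133 CPM in shYEATS2, and MXD4 falls from 59.1 and 62.8 CPM to 40.4 and 37.9 CPM.

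MYC (ENSG00000136997) encodes the transcription factor that drives ribosome production, nucleotide synthesis and cell cycle entry. It spans 127735434 to 127742951 of chromosome 8 of GRCh38 (plus strand). Its level was 70.4 CPM in each shControl library and 159 and 133 CPM in the shYEATS2 libraries. Both shYEATS2 libraries were far above the control pair, but they also differed from each other by 1.19-fold, more than the counting error of 1.57% and 2.52% on their 4035 and 1573 counts. The mean went from 70.4 ± 0.033 to 146 ± 18.2 CPM (SD, n = 2 each), 1.06 ± 0.07 (SE) as log2 fold change, with adjusted p = 1.2e-19 in edgeR. Of all tested genes, 6.33% had a larger rise. The value ranged from 0.91 to 1.17 when libraries were left out in turn, and from 1.02 to 1.20 in the other settings.

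MYCL (ENSG00000116990), which encodes a shorter MYC relative, was counted 4 and 3 times in shControl and 6 and 1 times in shYEATS2. These counts allow no statement on a difference. MYCN, the other member of that family, outside the 10 genes, had 0 counts in all 4 libraries, which allows up to 3 counts per library, between 0.0661 and 0.255 CPM. MYC had 1573 counts or more in each library, so it was the MYC-family gene with nearly all of the counts in BICR10.

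MAX (ENSG00000125952), the shared partner of the MYC and MXD proteins, spans 65006174 to 65102695 of chromosome 14 (minus strand). It was at 33.5 and 33.2 CPM in shControl and at 44.6 and 48.1 CPM in shYEATS2. Both knockdown libraries were above both control libraries, by 1.38-fold on the fitted scale. As log2 fold change this was 0.47 ± 0.08 (SE), with adjusted p = 1.1e-06 in edgeR. MAX shares 13.1% of its exon bases with FNTB on the opposite strand, a gene with 150 or fewer counts in every library.

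MXD1 (ENSG00000059728) encodes the antagonist known from differentiating keratinocytes and myeloid cells, and spans 69897688 to 69942945 of chromosome 2 (plus strand). It was at 17.2 and 17.4 CPM in shControl and at 32.9 and 41.1 CPM in shYEATS2. Here the second shYEATS2 library was the higher one, by 1.25-fold, where for MYC it was the lower one. As log2 fold change this was 1.07 ± 0.09 (SE), with adjusted p = 3.9e-15 in edgeR. It was 1.23 without shYEATS2 replicate 1 and 0.92 without shYEATS2 replicate 2.

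MXD4 (ENSG00000123933), an antagonist found widely in resting cells, spans 2247432 to 2262109 of chromosome 4 (minus strand). It was at 59.1 and 62.8 CPM in shControl and fell to 40.4 and 37.9 CPM in shYEATS2, with no overlap and a spread within each pair of at most 2.61 CPM (SD). As log2 fold change this was −0.63 ± 0.08 (SE), with adjusted p = 1.3e-10 in edgeR, and 10.6% of all tested genes fell further. It stayed between −0.72 and −0.50 over every setting tried.

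MXD3 (ENSG00000213347) encodes an antagonist that is expressed in dividing cells, and lies on chromosome 5 from 177301461 to 177312757 on the minus strand. It was at 20.2 and 21.2 CPM in shControl and at 18.3 and 16.6 CPM in shYEATS2. The groups did not overlap, and the difference was small, at −0.23 ± 0.10 (SE) as log2 fold change and adjusted p = 0.0497 in edgeR. The call was lost in 10 of the 13 alternatives. MXD3 also shares 24.2% of its exon bases with PRELID1 on the opposite strand, which had 9329 counts in the deepest library, and 19.5% with RAB24 on the same strand. The strand setting of the counting is not given in the sources used here, and the part of these stretches in the value was not tested.

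MXI1 (ENSG00000119950), also called MXD2, is an antagonist known as a hypoxia-responsive gene, and spans 110207605 to 110287365 of chromosome 10 (plus strand). It was at 28.3 and 30.5 CPM in shControl and at 34.5 and 38.7 CPM in shYEATS2. As log2 fold change this was 0.30 ± 0.08 (SE), with adjusted p = 0.002 in edgeR. Without shControl replicate 1 it was 0.25 and no longer passed, with adjusted p = 0.110 in edgeR.

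MNT (ENSG00000070444) encodes the large, ubiquitous antagonist that pairs with MAX and MLX, and spans 2384073 to 2401104 of chromosome 17 (minus strand). It was at 25.7 and 24.3 CPM in shControl and at 36.4 and 30.4 CPM in shYEATS2. As for MYC, the first shYEATS2 library was the higher one, by 1.20-fold. As log2 fold change this was 0.44 ± 0.09 (SE), with adjusted p = 3.4e-05 in edgeR, and it was 0.26 without shYEATS2 replicate 1.

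MLX (ENSG00000108788), the MAX-like partner, spans 42567072 to 42573239 of chromosome 17 (plus strand). It was at 61.0 and 57.9 CPM in shControl and at 53.6 and 54.2 CPM in shYEATS2, −0.14 ± 0.07 (SE) as log2 fold change, with adjusted p = 0.101 in edgeR. This value was not called, although the groups did not overlap, and MLX shares 18.2% of its exon bases with PSMC3IP on the opposite strand. MLXIP (ENSG00000175727), the glucose sensor MondoA that moves with MLX to the nucleus, spans 122078756 to 122147344 of chromosome 12 (plus strand). It was at 55.8 and 55.2 CPM in shControl and at 59.8 and 56.1 CPM in shYEATS2, 0.07 ± 0.07 (SE) as log2 fold change, with adjusted p = 0.468 in edgeR. The MLXIP means of 55.5 and 57.9 CPM differed by less than the SD of the shYEATS2 pair, 2.63 CPM.

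The extended network holds MGA and MLXIPL besides. MGA, a very large scaffold that pairs with MAX and belongs to a Polycomb-type repressor complex, was at 48.4 and 50.8 CPM in shControl and at 50.9 and 51.3 CPM in shYEATS2 (log2 fold change 0.04, standard error 0.07, adjusted p = 0.667). MLXIPL, the liver glucose sensor ChREBP, was counted 10 and 9 times in shControl and 31 and 9 times in shYEATS2. The fitted log2 fold change was 2.17 ± 0.50 (SE), with adjusted p = 0.00022 in edgeR, at a level of at most 1.22 CPM.

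**Figure D2:**
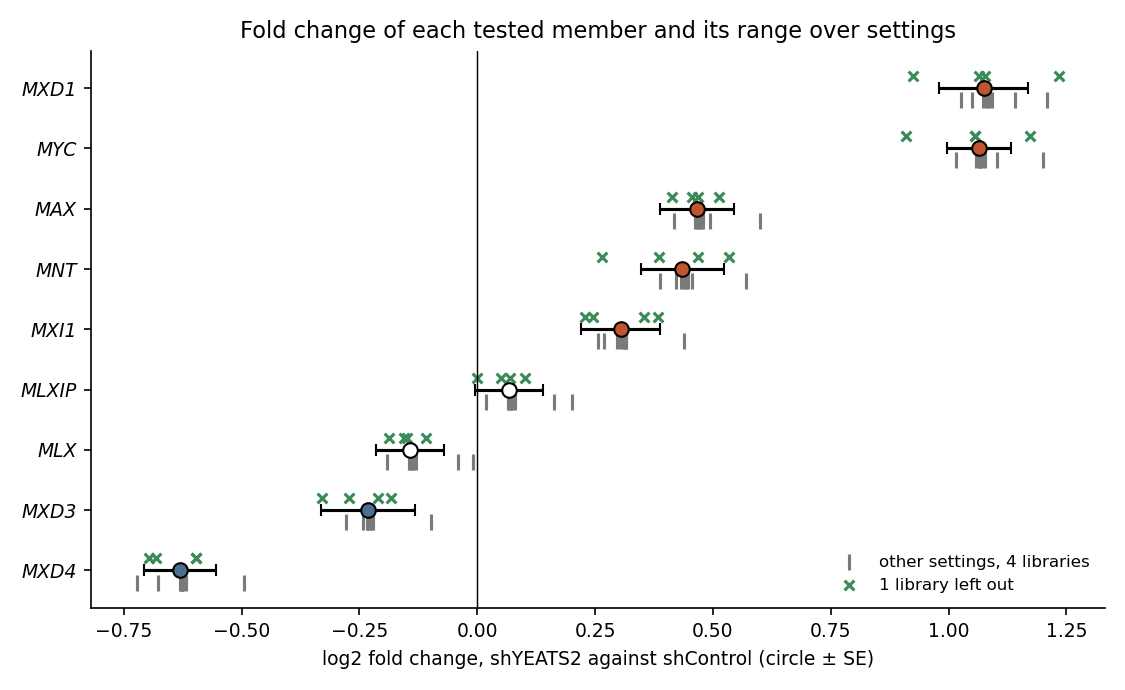
Log2 fold change of each of the 9 tested members, shYEATS2 against shControl, as a circle with its standard error (orange, higher; blue, lower; white, not called). Grey ticks are the other settings with 4 libraries, and green crosses the fits that left out 1 library. MYC, MXD1, MAX, MNT and MXI1 stay right of 0 and MXD4 and MXD3 left of 0 in every setting, and MLXIP crosses close to 0.

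To set the members against each other, the CPM of each gene was divided by the length of the union of its exons in GENCODE release 44, in kilobases. On this per-length scale MLX was the highest member in shControl, at 14.0 ± 0.512 CPM per kilobase (SD, n = 2), followed by MYC at 11.5 ± 0.0055 and MXD4 at 8.87 ± 0.380. MAX came next at 5.33 ± 0.028, and then MXI1, MXD3, MLXIP, MNT and MXD1 down to 2.72 ± 0.021 CPM per kilobase. No neighbours in this order overlapped between their control libraries. In shYEATS2 MYC was the highest member at 24.0 ± 2.99 CPM per kilobase, ahead of MLX at 12.7 ± 0.102 and MAX at 7.41 ± 0.396. There MXI1 overlapped with MXD1, MXD1 with MXD4, MLXIP with MNT and MNT with MXD3. MXD1 moved from rank 9 to rank 5 in this order, and MXD4 from rank 3 to rank 6. With the longest transcript as the length, MXD1 was at rank 9 in both conditions, so its place depends on the length chosen.

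The summed antagonist RNA changed little, while its makeup changed. MXD1, MXD3, MXD4, MXI1 and MNT summed to 23.3 and 24.3 CPM per kilobase in shControl and to 24.9 and 25.5 in shYEATS2, a ratio of the means of 1.06. Within this sum MXD1 gained and MXD4 lost. The ratio of MXD1 to MXD4 per length was 0.315 and 0.300 in shControl and 0.882 and 1.17 in shYEATS2. With the longest transcript as the length, MXD1 averaged 6.63 and MXD4 9.26 CPM per kilobase in shYEATS2. On that length MXD1 thus stayed below MXD4. The ratio of MYC to MXD1 per exon length was 4.25 and 4.21 in shControl and 5.03 and 3.38 in shYEATS2, so the knockdown libraries lay on both sides of the control libraries. MYC over the sum of the 5 antagonists was 0.494 and 0.474 in shControl and 1.05 and 0.856 in shYEATS2, which is 1.96-fold higher by the means. An exact two-sided permutation test of 2 libraries against 2 gave p = 0.33 for this ratio, the smallest p that the design allows. As both quantities come from the same library, the ratio does not change with the scaling of the libraries.

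As shares of the summed level per length of MYC and the 5 antagonists, MYC held 33.1% and 32.2% in shControl and 51.1% and 46.1% in shYEATS2. MXD4 held 24.7% and 25.5% in shControl and 11.5% and 11.6% in shYEATS2. MXD1 went from 7.77% and 7.64% to 10.2% and 13.6%, and MXD3 from 12.2% and 12.5% to 7.55% and 7.40%. The shares of MXI1 (13.8% and 14.4% against 11.5% and 13.8%) and of MNT (8.49% and 7.80% against 8.20% and 7.37%) overlapped between the conditions. MAX overlapped between the conditions in its proportion to these partners, at 0.154 and 0.148 of their sum in shControl and 0.140 and 0.162 in shYEATS2. Proteins were not measured in these data, and the shares are those of RNA.

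**Figure D3:**
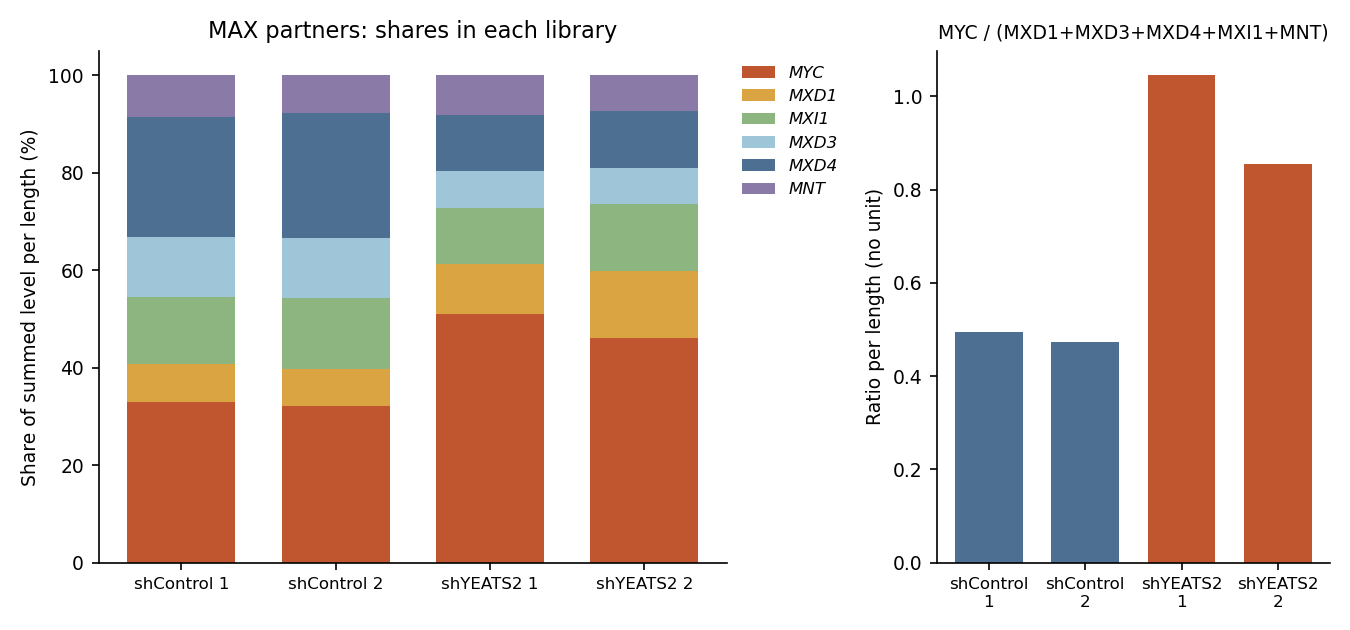
Left, share of MYC, MXD1, MXI1, MXD3, MXD4 and MNT in their summed level per kilobase of exon, in percent, one bar per library. Right, the ratio of MYC to the summed 5 antagonists per length in each library (blue, shControl; orange, shYEATS2). The MYC share is 32.2% to 33.1% in shControl and 46.1% to 51.1% in shYEATS2, and the ratio is below 0.5 in both control libraries and above 0.8 in both knockdown libraries.

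As these factors bind the E-box CACGTG, the promoters of the members were searched for it. The windows ran from 250 bases before to 50 bases after the RefSeq start site (GRCh38.p14), and 9 of the 10 members had one. MYC had no window, so its promoter was not searched. CACGTG, which reads the same on both strands, was found in 3 of the 9, MXD4, MNT and MLX, and in 7.26% of the 35116 windows of all genes. The 30 bases around it are shown for these 3 genes because they place the match to the E-box. They run in the direction of the gene, with the motif in capitals.
MXD4, chr4:2262330-2262359, minus strand: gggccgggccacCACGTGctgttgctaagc
MNT, chr17:2401236-2401265, minus strand: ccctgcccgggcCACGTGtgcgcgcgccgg
MLX, chr17:42567038-42567067, plus strand: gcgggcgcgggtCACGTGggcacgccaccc
The first base of the motif lay 238 bases before the start site in MXD4, 193 before it in MNT and 50 before it in MLX. Of these genes MXD4 fell, MNT rose and MLX was not called. The promoters of MXD1, which rose, and of MXD4, which fell, are given whole, because these antagonists moved furthest in opposite directions.
MXD1, chr2:69914859-69915158, plus strand: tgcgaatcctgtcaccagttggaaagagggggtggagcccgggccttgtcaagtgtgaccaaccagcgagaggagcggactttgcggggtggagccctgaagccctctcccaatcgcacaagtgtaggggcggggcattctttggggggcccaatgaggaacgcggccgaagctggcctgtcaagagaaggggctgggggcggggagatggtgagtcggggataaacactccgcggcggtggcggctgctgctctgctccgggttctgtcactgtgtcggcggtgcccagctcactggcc
MXD4, chr4:2262060-2262359, minus strand: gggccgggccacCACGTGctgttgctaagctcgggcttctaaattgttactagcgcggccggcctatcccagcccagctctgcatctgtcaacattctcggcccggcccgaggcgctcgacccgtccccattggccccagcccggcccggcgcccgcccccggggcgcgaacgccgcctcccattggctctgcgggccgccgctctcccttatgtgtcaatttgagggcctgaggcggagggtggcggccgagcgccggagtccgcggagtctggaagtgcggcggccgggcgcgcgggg
The MXD1 window holds no CACGTG, and it lies inside the GENCODE span of MXD1 given above, since the RefSeq start used here is downstream of the first annotated one. The windows of MAX (65102234 to 65102533) and MYCL, also without CACGTG, likewise lie inside the GENCODE spans of their genes. Sequence before the first annotated starts of MXD1, MAX and MYCL was therefore not searched. These matches describe letters in a window, and binding was not measured here.

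Of 56 genes that MYC-MAX is known to activate 55 were tested, and 14 were higher and 15 lower, shares near the 22.6% and 23.6% of all tested genes, with a median of −0.01 on the log2 scale. The median over the whole set of tested genes was also −0.01. Library totals in place of TMM turned the median of these genes to 0.13, as it moved that of all genes to 0.13. Among those that rose, SHMT2, the mitochondrial serine hydroxymethyltransferase, had a log2 fold change of 0.52 ± 0.06 (SE), RRP12, a ribosome assembly factor, 0.49 ± 0.07, and MAT2A, which makes S-adenosylmethionine, 0.48 ± 0.06. The largest falls were in HSPE1, a mitochondrial chaperonin with pseudogene copies that could share its reads, with −0.82 ± 0.13, APEX1, a DNA repair endonuclease, with −0.59 ± 0.07, and LDHA, lactate dehydrogenase A, with −0.58 ± 0.06. LDHA was the most abundant of these, at 4269 and 4370 CPM in shControl and 2854 and 2941 CPM in shYEATS2. EIF4A1, at 2.04 CPM on average in shControl, and PPAN were not called. They share 42.1% and 47.6% of their exon bases with another gene of the same strand, where reads may not have been counted. The list was also split by role after the values were seen, so the split only describes them. Of 23 nucleolar and RNA polymerase I genes 9 were higher and 2 lower (median 0.11). Of 15 nucleotide, polyamine and one-carbon genes 5 were higher and 2 lower (median 0.09). Of the 17 other genes tested 0 were higher and 11 lower (median −0.29).

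Of 15 genes that MYC is known to repress, 14 were tested, of which 6 were higher and 4 lower (22.6% and 23.6% of all tested genes), with a median log2 fold change of 0.33. The stress-induced growth arrest gene GADD45A rose most, from 80.2 and 78.0 CPM to 360 and 368 CPM, a log2 fold change of 2.20 ± 0.06 (SE). DDIT3, the stress transcription factor CHOP, which shares 27.2% of its exon bases with MARS1 on the opposite strand, had 2.03 ± 0.09, and CLU, a secreted chaperone, 0.64 ± 0.06. GAS1, a membrane protein of growth arrest, fell by 1.59 on the log2 scale, PDGFRB by 0.62 and THBS1, a matrix glycoprotein, by 0.57. PDGFRB is also one of the fibroblast markers above. CDKN1A, the cell cycle inhibitor p21, averaged 64.3 ± 1.30 CPM in the control pair and 68.9 ± 2.30 CPM after knockdown (SD, n = 2 each) and was not called (adjusted p = 0.216 in edgeR). Of the 4 targets of the MLX complexes, 3 were tested. TXNIP, an inhibitor of glucose uptake, rose with a log2 fold change of 0.31 ± 0.09 (SE), while ARRDC4 (−0.15 ± 0.09) and KLF10 (0.04 ± 0.07) were not called. Without shControl replicate 1, 0 of the 3 passed as higher, with TXNIP at 28.0 CPM in the remaining control library and at 31.8 and 35.1 CPM in shYEATS2.

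**Figure D4:**
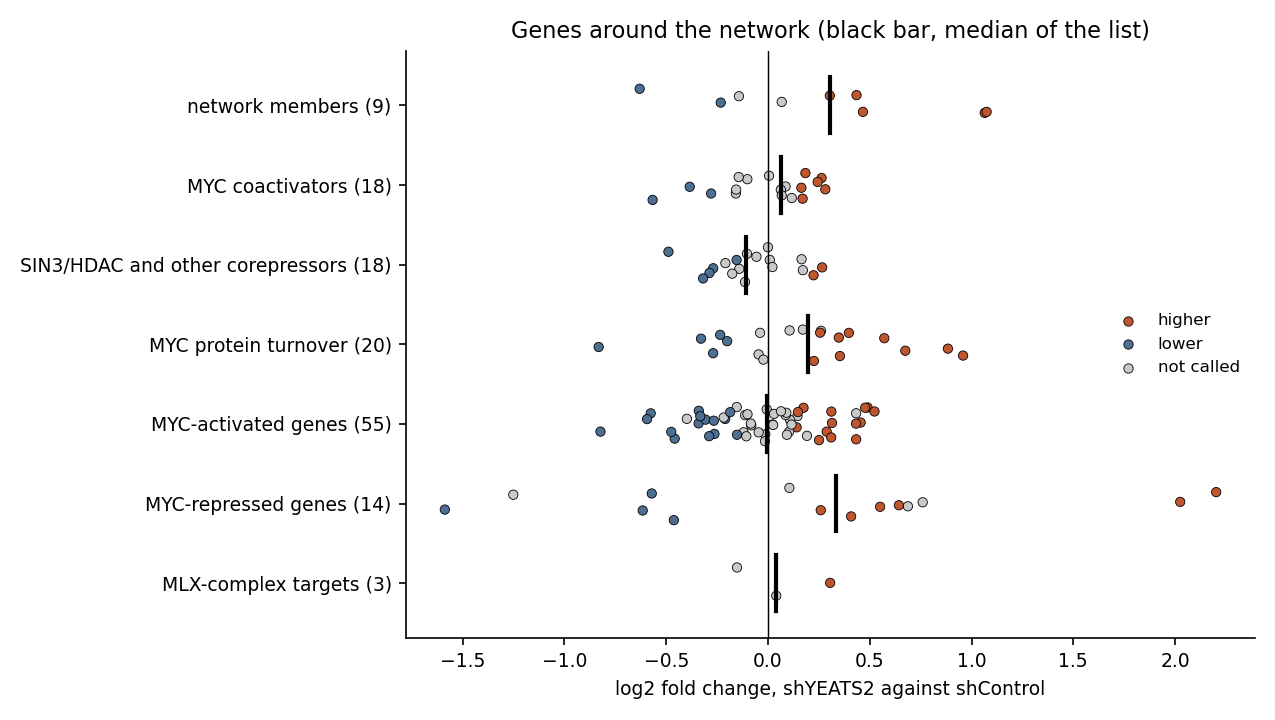
Log2 fold change, shYEATS2 against shControl, of each tested gene in the 7 lists around the network, with the number tested in brackets. Points are genes (orange, higher; blue, lower; grey, not called), spread vertically for legibility, and the black bar is the median. The MYC-activated genes lie on both sides of 0 with a median of −0.01, and the MYC-repressed genes range from −1.59 to 2.20.

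Of 18 coactivators that MYC recruits, all tested, 6 were higher and 3 lower, where 46.2% of all tested genes passed in either direction, with a median log2 fold change of 0.07. ACTL6A and RUVBL1, subunits of chromatin remodellers, had 0.28 ± 0.07 and 0.26 ± 0.07 (SE), and CCNT1, the cyclin of the elongation kinase, 0.24 ± 0.08. KAT2A, the acetyltransferase GCN5, fell by 0.57 on the log2 scale, HCFC1 by 0.38 and TRRAP, the scaffold that MYC binds, by 0.28. KAT2A is also a subunit of the ATAC complex to which YEATS2 belongs. Among 18 corepressors of the MXD and MNT proteins and their relatives, 2 were higher and 5 lower (22.6% and 23.6% of all tested genes), with a median of −0.11 that turned to 0.03 with library totals. RBBP4, a histone chaperone with 22.8% of its exon bases shared with the antisense gene SYNC, fell by 0.49, SAP18 by 0.32 and the deacetylase HDAC1 by 0.29, while HDAC2 rose by 0.27 ± 0.06 and NCOR1 by 0.22 ± 0.06. SIN3A, the scaffold that the MXD proteins bind, fell by 0.27 on the log2 scale.

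Of 20 genes that act on the stability of MYC protein, 9 were higher and 5 lower (22.6% and 23.6% of all tested genes), with a median log2 fold change of 0.20. The kinase genes PIM1 and AURKA, whose products stabilize MYC proteins, went from 17.9 and 17.1 to 33.4 and 34.8 CPM and from 54.3 and 57.4 to 101 and 106 CPM. Their log2 fold changes were 0.96 ± 0.09 and 0.88 ± 0.07 (SE). PLK1, a mitotic kinase, had 0.67 ± 0.06. The ubiquitin ligase gene SKP2, which targets MYC and the inhibitor p27, fell by 0.83, and the ligase genes STUB1 and TRIM32 by 0.33 and 0.27. STUB1 shares 42.5% of its exon bases with JMJD8 on the opposite strand. FBXW7, the ligase subunit that recognizes phosphorylated MYC, had a log2 fold change of 0.11 ± 0.11 and was not called. AURKA and PLK1 also act in mitosis.

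Over the 4 libraries, the genes with a pattern most like that of MYC were BCL2L1, IRF1 and SOCS3, among 9364 tested genes that averaged 10 CPM or more. The measure was the root mean square difference of log2 CPM after centring each gene, which was 0.035, 0.040 and 0.048. For MXD1 they were CENPA, TUBE1 and AL033397.1 (0.044, 0.047 and 0.065), and for MXD4 DNAJC15, DMAP1 and ACTB (0.015 for each). BCL2L1 was at 119 and 122 CPM in shControl and at 262 and 233 CPM in shYEATS2, with the first knockdown library higher as for MYC. CENPA was at 10.4 CPM in both shControl libraries and at 19.0 and 22.9 CPM in shYEATS2, with the second one higher as for MXD1. The comparison rests on 4 libraries.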

How the data were processed

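Poly-A RNA libraries of BICR10 cells, made with a stranded kit, were sequenced by the authors, who aligned the reads to GRCh38 with STAR and counted them per gene with HTSeq. The deposited values are raw counts per gene, 1 table per library. The aligner version, annotation release and strand setting are not given in the sources used here. Between 15.3% and 16.5% of each table's counts lay on rows that name no gene, and these were left out.

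Counts were analysed in R 4.3.3 with edgeR 4.0.16 (filterByExpr, TMM scaling, robust quasi-likelihood fit and test, Benjamini-Hochberg adjustment over 17058 genes, adjusted p under 0.05, no minimum fold). The standard error is the log2 fold change over the root of F. Values are relative to the libraries' bulk, and counting intervals cover counting error only. DESeq2 1.42.0 and limma 3.58.1 (voom) were alternatives. Exon lengths came from GENCODE 44, and promoters from RefSeq.

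The groups came from the sample titles. The titles do not state whether their replicate numbers pair the libraries. The replicate differences of the groups had a correlation of −0.018 over genes, which cannot exclude a pairing. Replicates differed beyond sampling noise (chi-square per degree of freedom 5.39 and 5.95).

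Named genes were the 10 members, MYCN, MGA, MLXIPL and YEATS2. Of each other list except the marker lists, the 3 called genes per direction with the largest change, a mean of at least 10 CPM and no overlap between groups were named. SIN3A, FBXW7, CDKN1A and the markers were named for their known role, after their values were seen. Also outside that rule, EIF4A1, PPAN and the genes overlapping named ones were given for shared exon bases. ARRDC4 and KLF10 were given as the other tested MLX targets, and CASC11 for its place at MYC. For MYC, MXD1 and MXD4 the 3 genes nearest in pattern were named. The members and lists were chosen with earlier results of these data known.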

Additional observations from a re-analysis of the deposited data

How the results depend on the processing

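YEATS2, MYC, MAX, MXD1, MXD4 and MNT kept their direction and call in all 13 alternatives. No called result changed sign. Values near 0 did so, namely the corepressor median with library totals, the MLX-target median (−0.0024 without shControl replicate 1), MLXIP (−0.00014 without shYEATS2 replicate 1) and the MYC-activated median (−0.040 to 0.13 over the settings). The cause of the changes given here was not tested. Library totals in place of TMM moved the median of all tested genes to 0.13 on the log2 scale, and gave 5441 genes higher and 2567 lower. With them MLXIP passed at 0.20, MXD3 lost its call at −0.10, and the member median was 0.44. They gave coactivators 10 higher with a median of 0.20, corepressors 4 higher and 3 lower with 0.027, and turnover genes 2 lower with 0.33. They gave MYC-activated genes 24 higher and 8 lower with 0.13, MYC-repressed genes a median of 0.47, and MLX targets 2 higher with 0.17. MXD3 also lost its call with DESeq2 size factors (−0.23), the upper quartile (−0.22), DESeq2 (−0.23), limma-voom (−0.22), the replicate block (−0.23) and thinned counts (−0.24), which left 1 member lower in each. The replicate block changed no other member's call. Without the count filter, MLX passed at −0.19, coactivators were 3 higher and 5 lower with a median of 0.017, and the medians were −0.040 for MYC-activated genes, 0.29 for MYC-repressed genes and 0.12 for MLX targets. Thinning gave medians of 0.022 for coactivators and 0.017 for MYC-activated genes, and a minimum of 10 counts 0.41 for MYC-repressed genes. With 1 library left out, its lone partner was taken to vary like the other group. This gave MXD3 −0.33 to −0.18, MXI1 0.23 to 0.38, MLX −0.19 to −0.11 (passing without shYEATS2 replicate 2), members lower 1 to 2 and their median 0.23 to 0.35. It gave coactivators 2 to 7 higher (2 without either shControl library), 3 to 6 lower (6 without shYEATS2 replicate 1) and a median of 0.021 to 0.051, and corepressors 1 to 3 higher (1 without either shControl library), 4 to 8 lower (8 without shYEATS2 replicate 1) and −0.18 to −0.088. Turnover genes lower were 3 to 6 (3 without either shControl library), the MYC-repressed median 0.29 to 0.35, and MLX targets 0 to 1 higher (0 without shControl replicate 1) and 0 to 1 lower (1 without shYEATS2 replicate 2). The ratio of MYC to its antagonists was 1.77 to 2.16 times that of shControl. DESeq2 called 2820 genes higher and 2949 lower. Each group held 2 libraries, and every member had 1573 counts or fewer in the shallowest one.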

Other observations

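Other E-box factors of the basic helix-loop-helix class, listed after the data had been seen, had 3 higher and 5 lower of 11 tested, where 22.6% and 23.6% of all tested genes were higher and lower. The circadian activator genes NPAS2 and ARNTL rose by 0.87 and 0.30 on the log2 scale, while ARNT, the shared partner of the hypoxia factors, fell by 0.58 and CLOCK, the paralogue of NPAS2, fell by 0.28. The repressor gene BHLHE40 fell by 0.82 and its paralogue BHLHE41 rose by 0.27.

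The noncoding gene PVT1, which lies beside MYC, was at 26.5 and 26.0 CPM in shControl and at 36.0 and 32.7 CPM in shYEATS2 (log2 fold change 0.40, standard error 0.09, adjusted p = 7.9e-05 from edgeR's quasi-likelihood test). As for MYC, the first shYEATS2 library was the higher one. CASC11, with 28 counts or fewer in every library, was at 0.419 and 0.741 CPM in shControl and at 0.947 and 1.53 CPM in shYEATS2, and was called higher (log2 fold change 1.03, standard error 0.42, adjusted p = 0.040 in edgeR). Its exons overlap those of MYC on the opposite strand.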
